A study of Mus musculus with 13 samples.

Results

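T cells are lymphocytes that read antigen through a receptor signalling through the CD3 chains. Helper T cells carry the co-receptor CD4, secrete cytokines and start experimental autoimmune encephalomyelitis (EAE), a mouse model of multiple sclerosis in which myelin-reactive helper cells enter the spinal cord. Cytotoxic T cells carry CD8 and kill with perforin and granzymes, a machinery they share with natural killer cells, lymphocytes that have no T cell receptor. Interferon gamma, encoded by Ifng, and GM-CSF, encoded by Csf2, are T cell cytokines that act on macrophages and microglia.

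The T cells described here are the cells that the authors' deposited annotation names T cell, 574 of 22148 annotated single cells. Of these, 562 lie in the authors' Cluster 5 and 12 lie in other clusters. They come from mouse spinal cords of the genotype Cx3cr1YFPCreERT2:R26tdTomato, in which a tamoxifen-inducible Cre made by Cx3cr1-expressing cells marks long-lived microglia with tdTomato; the controls carry the same alleles. Live cells were sorted through a gate for resident microglia or a gate for infiltrating myeloid cells and read by 10x Genomics droplet sequencing. Neither gate was set for T cells, so these cells are what a myeloid sort carried along, and their share is not a share of spinal cord T cells. The groups are chronic EAE with the resident gate (3 libraries, 53, 139 and 36 T cells), chronic EAE with the infiltrating gate (3 libraries, 24, 64 and 52 T cells), peak EAE with the resident gate (2 libraries, 6 and 10 T cells), peak EAE with the infiltrating gate (2 libraries, 141 and 47 T cells) and control, without EAE, with the resident gate (3 libraries). Control libraries held 1, 0 and 1 T cells of 1794, 1154 and 3257 cells. The 0 of 1154 allows a share of up to 0.26%. The control cells enter no comparison. Libraries are called a, b and c within a group, because the cell table names the group of a library but not its replicate number.

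The T cells held 3167241 UMIs (counted RNA molecules), between 35079 and 1199623 per EAE library. The median T cell had 2860.5 to 3744.5 UMIs in the 6 chronic libraries and 5189.5 to 7258 UMIs in the 4 peak libraries. The cell table gives each library a code under the header SLX, which does not say what the code marks. The codes are called pools A to D here. All chronic libraries were in pools B and D and all peak EAE libraries in pools A and C, so stage and pool cannot be told apart. A batch date is also given and was not used as a term in the fits. Over the whole series, 52 barcodes were shared between libraries, and 3 of the T cells had such a barcode. No cell was marked as a doublet in the deposited table.

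The label fitted the markers. A UMI of Cd3d, Cd3e or Cd3g, the CD3 chains, was found in 548 of the 574 T cells (95.47%) and in 198 of 21574 other cells (0.918%). Levels are given as CPM, the UMIs of a gene in the T cells of a library scaled to a common total. As a mean over the 10 EAE libraries, Cd3e had 790 ± 301 CPM (SD, n = 10) and 1.11 ± 0.98 CPM in the other cells of the same libraries. Cd3d had 1231 ± 227 CPM in T cells and 2.58 ± 2.85 CPM in other cells. Both CD3 genes were near 0 outside these cells. Nkg7, a protein of cytotoxic granules, had 2042 ± 575 CPM in T cells and 3.1 ± 2.75 CPM in other cells. Cxcr6, a chemokine receptor of tissue T cells, had 802 ± 218 CPM in T cells and 1.38 ± 1.06 CPM in other cells. Gzma, the serine protease granzyme A, had a mean of 1615 CPM in T cells and 0.464 CPM in other cells, and it was the least even of the 5 markers, with 6.78 to 5236 CPM over the libraries. The annotation chose the cells by their expression, so these differences are descriptions without a test. The 20 genes with the highest ratio of T cell to other-cell CPM were Klra5, Cd160, Gzmc, Ncr1, Gzma, Sytl3, Ccl1, Csf2, Klrc2, Xcl1, Gzmb, Prf1, Gzmk, Sh2d1a, Lax1, Cd3e, Actn2, Cd247, Lef1 and Nkg7. That list mixes general T cell signalling genes (Cd3e, Cd247, Sh2d1a, Lax1) with granule proteases, secreted factors (Ccl1, Csf2, Xcl1) and natural killer receptors (Klra5, Ncr1, Klrc2). The constant regions of the T cell receptor genes, such as Trac and Trbc2, could not be read here because these symbols are not among the 22598 features.

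Prf1, Klf2 and Gzma are the genes on which the comparisons below turn, and the 250 bases before the start of each are shown for that reason, with the RUNX core motif in capitals. RUNX factors bind TGTGGT, and Runx3 is a regulator of cytotoxic T cells. Prf1 encodes perforin, which makes the pores through which granzymes enter a target cell; its window is chr10:61297586-61297835 (plus strand). Klf2 encodes a transcription factor that T cells need to leave lymphoid tissue; its window is chr8:72318812-72319061 (plus strand). The Gzma window is chr13:113100982-113101231 (minus strand). Sequences are from RefSeq on GRCm38.p6, 5′ to 3′ on the strand of the gene.
Prf1: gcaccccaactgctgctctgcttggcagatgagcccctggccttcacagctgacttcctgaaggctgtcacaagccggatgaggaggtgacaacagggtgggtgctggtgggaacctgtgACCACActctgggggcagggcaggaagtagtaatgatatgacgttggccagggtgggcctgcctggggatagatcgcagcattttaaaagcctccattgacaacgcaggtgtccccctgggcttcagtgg
Klf2: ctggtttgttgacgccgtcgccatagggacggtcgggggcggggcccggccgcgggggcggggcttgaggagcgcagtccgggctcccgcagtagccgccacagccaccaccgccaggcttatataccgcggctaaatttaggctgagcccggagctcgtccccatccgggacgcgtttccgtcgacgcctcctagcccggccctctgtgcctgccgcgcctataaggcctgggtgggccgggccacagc
Gzma: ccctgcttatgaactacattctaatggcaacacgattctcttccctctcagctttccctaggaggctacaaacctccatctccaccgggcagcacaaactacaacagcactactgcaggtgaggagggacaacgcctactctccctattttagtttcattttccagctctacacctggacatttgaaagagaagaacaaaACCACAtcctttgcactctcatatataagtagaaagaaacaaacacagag
TGTGGT, or ACCACA on the other strand, occurs 1 time in the Prf1 window, 1 time in the Gzma window and not in the Klf2 window. Over all 32851 promoter windows of the same table and length, 14% hold it. The T-box motif GGTGTGA (or TCACACC) and the FOXO motif TGTTTAC (or GTAAACA) occur in none of the 3 windows, and in 3.3% and 3.2% of all windows. These matches describe letters and were not tested against binding.

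Counted over all UMIs, helper cells were the most numerous class of annotated T cell with a readable co-receptor. That order did not hold at equal depth (below). Of 572 EAE T cells, 224 (39.2%) had a Cd4 UMI and none of Cd8a or Cd8b1, the chains of CD8, and are called Cd4 cells below. Another 128 (22.4%) had a Cd8a or Cd8b1 UMI and no Cd4 UMI and are called Cd8 cells. Both co-receptors were seen in 12 cells (2.1%). Another 185 (32.3%) had neither co-receptor and were outside the natural killer receptor class given next. The remaining 23 cells (4.02%) had no Cd3 UMI and no co-receptor but a UMI of a natural killer receptor gene. Of these 23, 20 had a UMI of Ncr1, the activating receptor NKp46, and 18 had one of Klrb1c, which encodes NK1.1. The annotated T cells therefore hold a minority of cells with natural killer genes and no CD3, called natural killer-like below.

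**Figure D1:**
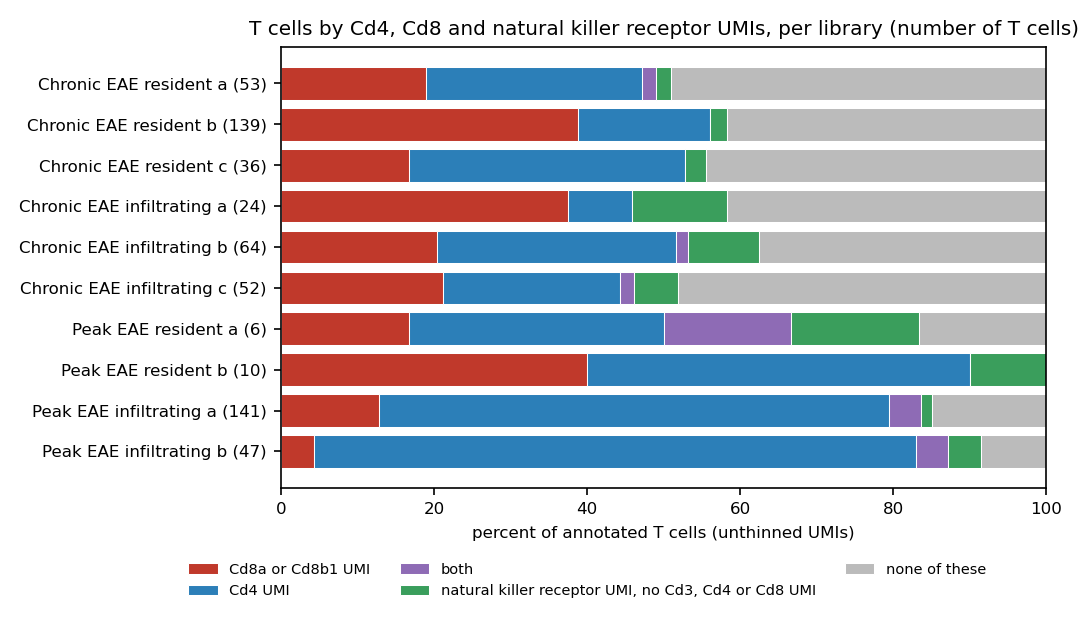
Share of T cells in each class (percent of the T cells of a library, stacked) in the 10 EAE libraries, chronic above peak. Cd4 cells were 66.7% and 78.7% of the peak infiltrating libraries and at most 36.1% of the chronic ones, at a higher UMI depth in peak cells.

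Cd4 cells made up 28.3%, 17.3% and 36.1% of T cells in chronic resident libraries and 8.33%, 31.3% and 23.1% in chronic infiltrating libraries, against 33.3% and 50.0% in peak resident and 66.7% and 78.7% in peak infiltrating libraries. Cd8 cells made up 18.9%, 38.9% and 16.7% in chronic resident and 37.5%, 20.3% and 21.2% in chronic infiltrating libraries, against 16.7% and 40.0% in peak resident and 12.8% and 4.26% in peak infiltrating libraries. Natural killer-like cells were 12.5%, 9.38% and 5.77% of chronic infiltrating libraries, against 1.42% and 4.26% of peak infiltrating ones. They were 1.89%, 2.16% and 2.78% of chronic resident libraries, against 16.7% and 10.0% of peak resident ones, where each of these shares is 1 cell. So the infiltrating gate held more natural killer-like cells than the resident gate in chronic EAE, and the opposite order at the peak rests on 2 cells. A Cd4 UMI is easier to see in a deep cell. After thinning every cell to 1000 UMIs, Cd4 cells averaged 10.1% ± 3.59 in chronic libraries (SD, n = 6) and 20.7% ± 14.4 in peak libraries (n = 4), which was not called (exact permutation within gate, two-sided p = 0.12, adjusted p = 0.39 over 15 shares). Thinned shares were 8.33%, 17.2% and 9.62% in chronic infiltrating and 24.1% and 25.5% in peak infiltrating libraries. In peak resident libraries they were 2 of 6 and 0 of 10 cells. Unthinned, the means were 24.1% ± 10.1 in chronic and 57.2% ± 19.8 in peak libraries, also not called (exact permutation p = 0.02, adjusted p = 0.05). Cd8 cells averaged 20.5% ± 9.04 in chronic and 15.4% ± 11.0 in peak libraries after thinning (exact permutation p = 0.47, adjusted p = 0.641). Pooled over the EAE libraries at that depth, 102 of 569 cells (17.9%) were Cd8 cells and 84 (14.8%) were Cd4 cells. This reversed the unthinned order. At the same depth 0.0438% of microglia counted as Cd4 cells and 0.0701% as Cd8 cells.

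Cd8 cells had more Gzmk, Ccl5, Ly6c2 and Gzma than Cd4 cells, and less Nrgn, Capg, Hif1a and Ifng. This comparison was added after the data had been seen. It sets Cd8 against Cd4 cells of the same library, in the 6 libraries with at least 5 of each. In the order used below, these were chronic resident a, b and c, chronic infiltrating b and c, and peak infiltrating a. They held 10, 54, 6, 13, 11 and 18 Cd8 cells and 15, 24, 13, 20, 12 and 94 Cd4 cells. Peak infiltrating a was the only peak library, so the result describes mostly chronic EAE. Gzmk, a granule protease, had 635, 432, 327, 394, 402 and 570 CPM in Cd8 cells, against 21.9, 0, 0, 0, 0 and 9.36 CPM in Cd4 cells of the same libraries. Ccl5, a chemokine for T cells and myeloid cells, had 9295, 19166, 3959, 16602, 23865 and 14199 CPM in Cd8 cells, against 76.5, 853, 217, 98.2, 706 and 1180 CPM in Cd4 cells. For both genes every Cd8 value was above every Cd4 value. The log2 fold change was 5.91 ± 0.33 for Gzmk (adjusted p = 1.09e-06) and 4.88 ± 0.40 for Ccl5 (adjusted p = 2.46e-05), by edgeR with the library as a block and Benjamini-Hochberg adjustment over 948 genes. Called genes, at an adjusted p under 0.05, were 40 of the 948 (4.22%), with 15 higher (1.58%) and 25 lower (2.64%) in Cd8 cells. The co-receptor genes chose the classes and are left out of those counts.

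Higher in Cd8 cells were also Gzma (log2 fold change 4.07 ± 0.79), the monocyte and memory T cell surface gene Ly6c2 (3.97 ± 0.36), Klf2 (2.47 ± 0.53), Runx3 (1.24 ± 0.23), Gimap7, a GTPase of lymphocytes (1.17 ± 0.23), Ctla2a (1.13 ± 0.27), the mitochondrial cytochrome oxidase gene Ndufa4 (1.11 ± 0.19), the homeodomain gene Hopx (1.04 ± 0.20) and Nkg7 (1.00 ± 0.22). Lower in Cd8 cells were Nrgn (−4.41 ± 0.63), the chemokine gene Ccl1 (−4.03 ± 0.76), Tmem176b (−2.88 ± 0.53) and Tmem176a (−2.63 ± 0.46), a pair of ion channel genes, the survival genes Bcl2a1d (−2.21 ± 0.31) and Bcl2a1b (−1.49 ± 0.22), the actin-capping gene Capg (−2.09 ± 0.24), the oxygen-sensing factor Hif1a (−1.73 ± 0.24), the inhibitory receptor Lag3 (−1.68 ± 0.28) and the mitochondrial carrier Ucp2 (−1.11 ± 0.15). Bcl2a1d and Bcl2a1b are near-identical copies, so the split of their reads is uncertain. Ifng had 22.7, 94.7, 245, 71.6, 89.4 and 49.9 CPM in Cd8 cells, against 252, 435, 16.7, 213, 198 and 454 CPM in Cd4 cells. It was lower in Cd8 cells in 5 of 6 libraries (log2 fold change −2.01 ± 0.48, adjusted p = 0.0357 by the same edgeR test). Of the cytotoxic list, 7 of 16 genes passed the count filter and 4 of those rose in Cd8 cells (median log2 1.44, against −0.009 over all genes tested). Of the 36 complex I genes, which build the entry enzyme of the respiratory chain, 24 passed the filter and none was called (median −0.043).

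**Figure D2:**
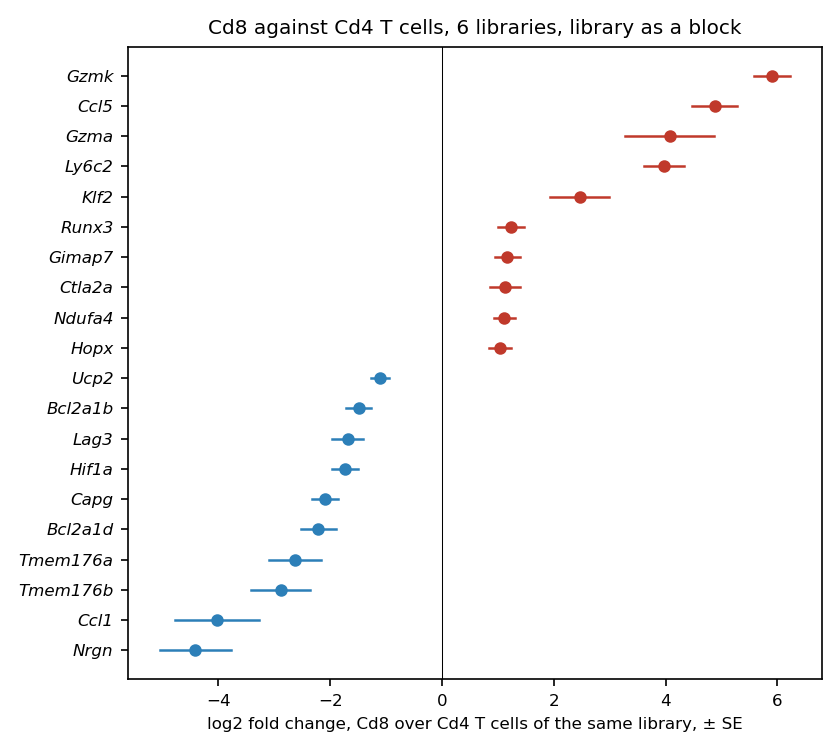
Log2 fold change with its SE of genes that differed between Cd8 and Cd4 cells of the same 6 libraries. Points right of 0 are higher in Cd8 cells, led by Gzmk at 5.91 and Ccl5 at 4.88; points left of 0 are lower, led by Nrgn at −4.41.

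Some T cell products came from very few cells. Gzma had 4979 UMIs in 99 EAE T cells, and 1 cell with both co-receptors held 15.5% of them. Gzmc, another granzyme, had 1115 UMIs in 8 cells, 45.7% of them in 1 natural killer-like cell of a chronic resident library. Il17a, the cytokine of Th17 helper cells, had 55 UMIs in 4 cells, of which 41 were in 1 cell of chronic resident library a. A library's level of Gzmc or Il17a thus says whether such a cell was caught. Csf2, with 177 UMIs in 48 cells, had 55.9% of them in its top 5 cells. Ifng was spread more widely, with 899 UMIs in 192 cells, 125 of them Cd4 cells. Foxp3, the factor of regulatory T cells, had 43 UMIs in 31 cells, and Il13, a Th2 cytokine, had 1 UMI. Over the pooled cells of each class, Prf1 was at 1420 CPM in natural killer-like cells, 114 CPM in Cd8 cells and 4.87 CPM in Cd4 cells.

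Chronic T cells had less Havcr2, Rora and Il18rap than peak T cells, and more Klrg1, Gstp1 and Spint2. Over both gates, with the gate as a term, 93 of 4304 genes were called (2.16%), of which 38 were higher (0.883%) and 55 lower (1.28%) in chronic cells. With scaling by library size alone the split was 51 higher and 50 lower. Without peak infiltrating library b, 4 genes were called, leaving out any other library gave 18 to 240, and with Cd4 cells alone 7 of 1950 were (0.359%). Cd4 cells were 66.7% and 78.7% of peak infiltrating T cells and at most 36.1% of chronic ones (above), and the part of the class mix in the stage difference was tested only by that restriction to Cd4 cells.

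Havcr2, the inhibitory receptor TIM-3 of activated T cells and myeloid cells, had 23.3, 24.9 and 6.97 CPM in chronic resident and 10.0, 24.3 and 9.06 CPM in chronic infiltrating libraries, against 126 and 111 CPM in peak resident and 90.0 and 147 CPM in peak infiltrating libraries. Every chronic value lay below every peak value. Havcr2 fell by 2.69 ± 0.37 on the log2 scale (adjusted p = 0.00796 by edgeR, quasi-likelihood, Benjamini-Hochberg over 4304 genes), and it was called in 18 of 19 alternatives, with adjusted p up to 0.257 in Cd4 cells alone. Havcr2 was not more abundant in T cells than in the other cells by the 2-fold rule.

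Rora, a nuclear receptor of Th17 and innate lymphoid cells, had 58.4, 80.8 and 83.6 CPM in chronic resident and 30.0, 58.4 and 54.4 CPM in chronic infiltrating libraries, against 176 and 166 CPM in peak resident and 171 and 180 CPM in peak infiltrating libraries. Il18rap, a chain of the interleukin 18 receptor, had 54.5, 72.5 and 34.8 CPM in chronic resident and 30.0, 58.4 and 95.2 CPM in chronic infiltrating libraries, against 303 and 299 CPM in peak resident and 119 and 252 CPM in peak infiltrating libraries. Neither gene's groups overlapped. Rora fell by 1.53 ± 0.24 (adjusted p = 0.0118) and Il18rap by 1.88 ± 0.33 (adjusted p = 0.0123) on the log2 scale, in the same edgeR fit. Without peak infiltrating library b the adjusted p was 0.0571 for Rora and 0.0625 for Il18rap.

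Other genes enriched in T cells and lower in chronic cells were the receptor Notch1 (−2.14 ± 0.45), the growth-arrest gene Btg2 (−1.81 ± 0.41), Bcl2l11, which encodes the death protein BIM (−1.70 ± 0.36), Cd160, a receptor for the membrane protein HVEM (−1.49 ± 0.32), Cd4 (−1.49 ± 0.33) and the kinase gene Mapkapk3 (−1.31 ± 0.27). Cd4 had 20.0 to 146 CPM in the chronic libraries and 211 to 322 CPM in the peak ones, without overlap. Among genes not enriched in T cells, the adhesion receptor Cd44 fell by 1.39 ± 0.27, and the scaffold gene Rack1, the RNA-binding gene Hnrnpa1, the actin-binding gene Cotl1 and the growth gene Tpt1 fell by 1.63 ± 0.27, 1.65 ± 0.27, 1.28 ± 0.23 and 1.52 ± 0.30. Of 87 ribosomal protein genes tested, 2 were higher and 11 lower (median −0.229, against 0.033 over all genes).

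Klrg1, an inhibitory receptor of terminal effector T cells and natural killer cells, had 19.5, 22.8 and 41.8 CPM in chronic resident and 60.0, 58.4 and 127 CPM in chronic infiltrating libraries, against 0 and 11.1 CPM in peak resident and 9.81 and 7.50 CPM in peak infiltrating libraries. Each chronic value was above each peak value, and the log2 fold change was 3.03 ± 0.53 (adjusted p = 0.0123 by the same edgeR test). Other T cell-enriched genes higher in chronic cells were Gstp1, a glutathione transferase (1.65 ± 0.32), the protease inhibitor gene Spint2 (1.39 ± 0.29) and Hopx (1.06 ± 0.26). Among the remaining genes, the mitochondrial sulfur dioxygenase Ethe1 (2.38 ± 0.46), the Myc relative Bmyc (2.25 ± 0.41), Dpm3 of dolichol-phosphate-mannose synthesis (1.42 ± 0.23), the myosin light chain Myl12b (1.30 ± 0.27), Lsm7 of RNA processing (1.26 ± 0.26) and the lysosomal Laptm4a (1.24 ± 0.26) were higher. Without peak infiltrating library b, only Havcr2 of the 24 genes named by the rule for this comparison kept an adjusted p under 0.05, while all 24 kept their direction.

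**Figure D3:**
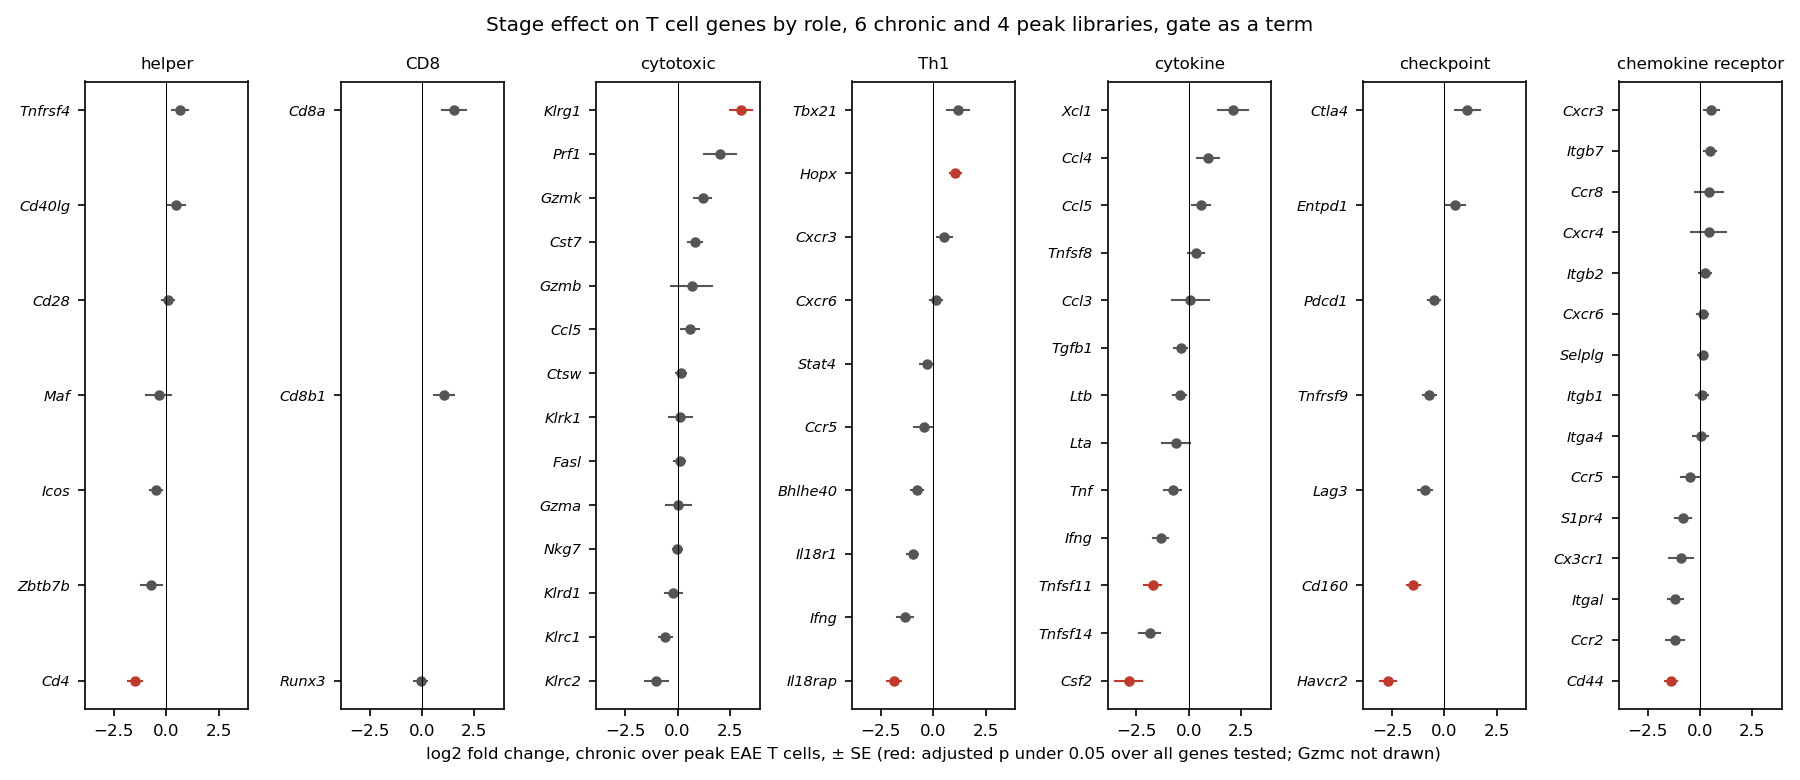
Log2 fold change of chronic over peak T cells with its SE, for the listed genes by role (Gzmc, with 45.7% of its UMIs in 1 cell, is not drawn). Called genes are red, and in each of the roles drawn most genes were not called; Havcr2 at −2.69 and Klrg1 at 3.03 stand on opposite sides of 0.

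By role, the lists gave few calls each, to be read against 2.16% called over all genes. Of 15 tested genes of T cell receptor signalling, out of 18 listed, none was called (median log2 −0.141). Of 13 tested cytokine genes out of 23, Csf2 and Tnfsf11 fell and none rose (median −0.432). Csf2 had 0, 78.8 and 6.97 CPM in chronic resident and 10.0, 19.5 and 0 CPM in chronic infiltrating libraries, against 252 and 355 CPM in peak resident and 72.2 and 25.0 CPM in peak infiltrating libraries. One chronic library overlapped the peak range. In peak resident library b, 1 cell held 30 of the 32 Csf2 UMIs, and in peak resident a 1 cell held 8 of 10. With the top cell of each library left out, unscaled Csf2 was 0 to 27.4 CPM in chronic and 16.6 to 69.2 CPM in peak libraries, and the ranges overlapped. Csf2 fell by 2.88 ± 0.65 (adjusted p = 0.033 by edgeR), and adjusted p ran up to 0.472 over its alternatives. Tnfsf11, the cytokine RANKL, had 0 to 68.0 CPM in chronic and 92.5 to 211 CPM in peak libraries, and fell by 1.72 ± 0.40 (adjusted p = 0.0374). Ifng averaged 122 ± 66.7 CPM in chronic libraries (SD, n = 6) and 325 ± 170 CPM in peak libraries (n = 4), with a log2 difference of −1.35 ± 0.38 that was not called (adjusted p = 0.0672 by edgeR).

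The helper list had 1 called gene of 7 (Cd4). The regulatory list had 4 positive values of 5 tested and no call (median 1.084). The Th1 list had Il18rap lower and Hopx higher of 10 tested (median −0.38). Of the 10 Th17 genes only Rora passed the count filter. The checkpoint list, receptors that restrain T cells, had Havcr2 and Cd160 lower of 7 tested (median −0.724). The residency list had Rgs1, a brake on chemokine signalling, lower (−1.26 ± 0.31) of 9 tested, the memory list had the chromatin organizer Satb1 lower (−1.38 ± 0.34) of 5, and the activation list had Il2rb, a chain of the interleukin 2 and 15 receptors, lower (−1.51 ± 0.32) of 13. Of 8 tested immediate early genes, which switch on within minutes of a stimulus, Egr1 (−2.48 ± 0.51), Jun (−2.21 ± 0.51), Btg2 and Fosb fell and none rose (median −1.811). In the infiltrating gate alone none of the 8 was called (median −1.377). There the sum of the 15 listed genes overlapped, at 2038 to 2799 CPM in chronic and 2155 to 2603 CPM in peak libraries. In the resident gate it was 1321 to 2703 CPM in chronic and 3706 to 3793 CPM in peak libraries, the latter with 6 and 10 T cells. Fosb had 4.15 CPM in 1 chronic library and 0 in the other 5, against 50.4, 200, 0.891 and 72.5 CPM in the peak libraries (adjusted p = 0.0236 by edgeR). The tissue was dissociated before the sort, and whether dissociation took part in these genes was not tested.

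Of 16 interferon-response genes, the transcription factor Irf1 rose (1.00 ± 0.24) and none fell; 13 had a positive log2 value and the median was 0.601. Of 36 complex I genes, Ndufa3 (1.47 ± 0.33) and Ndufa1 (0.90 ± 0.22) rose and none fell; 29 had a positive value and the median was 0.199. Of 14 tested glycolysis genes, Pfkp, a phosphofructokinase, fell (−1.02 ± 0.24) and the median was −0.239. None of 17 tested proliferation genes was called (median −0.345). Of 15 tested cytotoxic genes only Klrg1 was called, and Cd8a and Cd8b1 had log2 values of 1.54 ± 0.57 and 1.05 ± 0.47 (adjusted p = 0.158 and 0.239). The 5 tested natural killer genes all had positive values (median 2.752), with Klra7, an inhibitory receptor, higher by 3.94 ± 0.70. In the resident gate the summed level of the 8 listed natural killer genes did not rise. It was 33.9 to 130 CPM in chronic and 108 to 314 CPM in peak resident libraries. All 8 tested microglial markers had positive values as well (median 1.171), with none called.

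Within Cd4 cells alone, in the 8 libraries with at least 5 of them, 1 gene was higher (0.0513% of 1950) and 6 lower (0.308%) in chronic cells. These genes were chosen after their values had been seen. Gstp1 was higher (1.77 ± 0.32). Lower were the interferon-induced Ifitm1 (adjusted p = 0.0149 by edgeR), Plac8 (−2.27 ± 0.36), Hnrnpa1 (−2.58 ± 0.47), Rack1 (−1.86 ± 0.32) and the ribosomal protein genes Rps6 and Rpl17. Ifitm1 had 20.2 CPM in 1 of 5 chronic libraries and 0 in the other 4, against 43.9, 310 and 393 CPM in peak libraries. Rora had −0.76 ± 0.32 in Cd4 cells (adjusted p = 0.284 by edgeR), against −1.53 in all T cells. Havcr2 and Il18rap had log2 values of −1.88 ± 0.73 and −1.87 ± 0.48 in Cd4 cells and were not called (adjusted p = 0.257 and 0.104 by edgeR), and Ifng had −1.10 ± 0.54 (adjusted p = 0.345).

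In the infiltrating gate alone, chronic annotated T cells stood out by perforin and Klf2. The perforin call was lost when only cells with a Cd3 UMI were kept (below). Prf1 had 300, 385 and 281 CPM in chronic infiltrating libraries, against 38.3 and 20.0 CPM in peak infiltrating libraries. Klf2 had 840, 978 and 698 CPM in chronic infiltrating libraries, against 72.2 and 47.5 CPM in peak infiltrating ones. All 3 chronic values of each gene were above both peak values. Prf1 UMIs came from 4, 10 and 11 cells of the chronic infiltrating libraries, and 1 cell held 46.7%, 44.3% and 48.4% of them. With the top cell of each library left out, unscaled Prf1 was 143 to 226 CPM in chronic and 14.1 to 26.9 CPM in peak infiltrating libraries. Prf1 rose by 3.36 ± 0.45 and Klf2 by 3.77 ± 0.52 on the log2 scale (adjusted p = 0.00549 for both, by edgeR's quasi-likelihood test in the fit of 4 groups). Within this gate 12 of 4304 genes were called (0.279%), 8 higher (0.186%) and 4 lower (0.0929%).

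The other higher genes were Klrb1c (3.66 ± 0.63), Klrg1 (3.18 ± 0.57), the signalling adapters Fcer1g (2.72 ± 0.38) and Tyrobp (2.63 ± 0.48), which natural killer and myeloid cells use, Bmyc (2.58 ± 0.46) and Hopx (1.60 ± 0.28). Lower were Havcr2 (−2.91 ± 0.51), Rora (−1.79 ± 0.32), the ribosomal protein gene Rpl17, named to complete the count, and Tff1, a trefoil peptide with 0, 4.87 and 0 CPM in chronic against 87.4 and 55.0 CPM in peak infiltrating libraries. The summed level of the 8 natural killer marker genes was 409 to 845 CPM in chronic infiltrating libraries, against 56.7 to 169 CPM in peak infiltrating ones. Of 8 tested microglial markers, 7 had a positive log2 value in this gate (median 1.938) and none was called. The sum of the 12 listed was 177, 1960 and 198 CPM in chronic infiltrating libraries a, b and c. It was 260 and 124 CPM in peak infiltrating libraries a and b. Only chronic infiltrating library b lay above the peak range. Without the cells over 1% myeloid marker UMIs, Fcer1g and Tyrobp had log2 values of 2.70 and 2.58 (adjusted p = 0.00225 and 0.0123 by edgeR). With cells that have a Cd3 UMI only, Klf2 alone was called in this gate (log2 3.67, adjusted p = 0.0247 by edgeR), and Prf1 had a log2 value of 1.26 (adjusted p = 0.513). The range of adjusted p over all alternatives was 4.81e-14 to 0.661 for Klf2 and 5.22e-11 to 0.513 for Prf1.

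**Figure D4:**
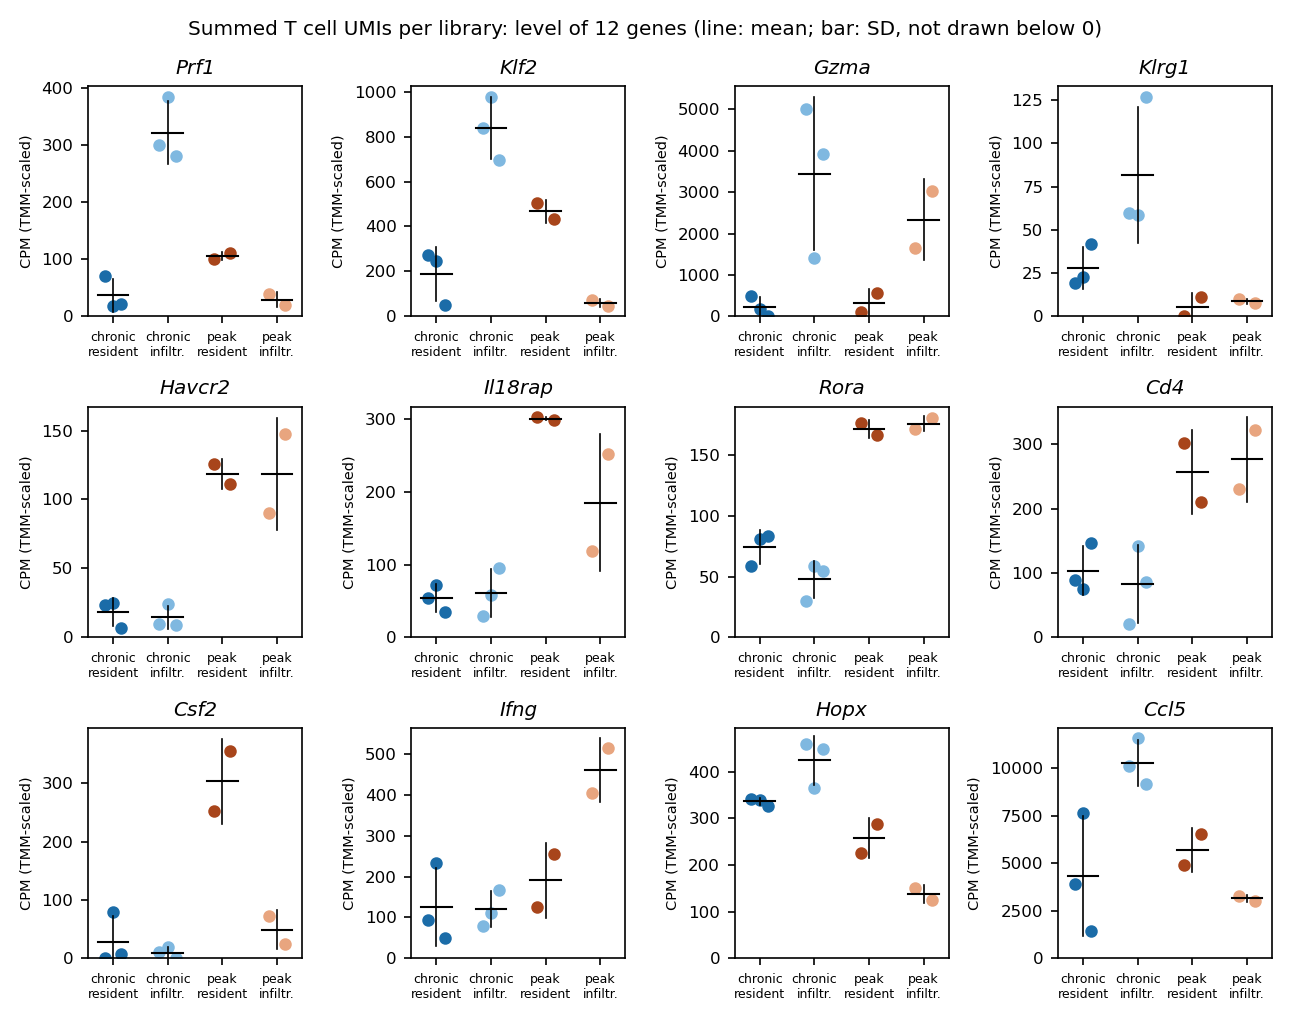
TMM-scaled CPM of selected genes in each EAE library (points), with the mean of each group as a line and its SD as a bar that is not drawn below 0; chronic groups are left of peak groups and the resident gate left of the infiltrating gate. Prf1 and Klf2 are highest in the 3 chronic infiltrating libraries, and Gzma is at 1402 CPM or more in all 5 infiltrating libraries.

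Between the gates, T cells of the resident gate had less granzyme A. Gzma had 490, 187 and 6.97 CPM in chronic resident and 101 and 554 CPM in peak resident libraries, against 5018, 1402 and 3916 CPM in chronic infiltrating and 1645 and 3022 CPM in peak infiltrating libraries. All 5 resident values lay below all 5 infiltrating ones. Single cells carried much of these values: 1 cell held 92.9% of the Gzma UMIs of chronic resident library a, 88% in peak resident b, 75.9% in chronic infiltrating a and 41.9% in peak infiltrating a. With the top cell of each library left out, unscaled Gzma was 0 to 139 CPM in resident and 914 to 2977 CPM in infiltrating libraries, still without overlap. Gzma averaged 268 ± 242 CPM in resident and 3001 ± 1525 CPM in infiltrating libraries (SD, n = 5 each) and fell by 3.43 ± 0.61 on the log2 scale (adjusted p = 0.0381 by edgeR, with the stage as a term). The share of cells with a Gzma UMI after thinning was 7.75% ± 7.81 in resident and 20.2% ± 6.23 in infiltrating libraries, a mean difference within stages of −12.0 percentage points that was not called (exact permutation p = 0.0833, adjusted p = 1). Unthinned, it was 20.1% ± 15.9 in resident and 22.4% ± 5.33 in infiltrating libraries, a mean difference within stages of 0.46 points (exact permutation p = 0.983, adjusted p = 0.983). The lower resident share at equal depth was thus not called and was not seen without thinning. Thinned Gzma UMIs were found in 0.0351% of microglia. The Gzma call was lost in 12 of 20 alternatives, with log2 values from −3.97 to −3.07.

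Only 6 of 4304 genes were called between the gates over both stages (0.139%), 5 higher (0.116%) and 1, Gzma, lower (0.0232%) in resident T cells. The higher genes without overlap were Ly86, a partner of a Toll-like receptor relative on myeloid cells (376 ± 179 CPM in resident and 35.1 ± 57.5 CPM in infiltrating libraries, 3.64 ± 0.64), and the lactate dehydrogenase gene Ldhb (71.5 ± 34.0 and 9.75 ± 9.05 CPM, 2.92 ± 0.52). Trem2 (2.77 ± 0.48), Ctsz (2.13 ± 0.39) and Lgmn (2.94 ± 0.55), genes of microglia and macrophages, were higher with overlapping values, and are named after their values had been seen. The 12 microglial markers moved with the gate. Their summed level in T cells was 2467 to 5006 CPM in chronic resident libraries, against 177, 1960 and 198 CPM in chronic infiltrating a, b and c. It was 1164 to 8695 CPM in peak resident libraries, against 124 to 260 CPM in peak infiltrating ones. Chronic infiltrating library b was mostly microglia: of its 2359 cells, 1908 were annotated microglia with at least 1000 UMIs. Chronic infiltrating a and c held 11 and 70 such microglia, and peak infiltrating a and b held 14 and 2. All 12 markers had UMIs in T cells, from 3 UMIs for Sall1 to 1367 for C1qb. In the other cells of the EAE libraries their sum was 6478 to 52405 CPM. Their part in the gate differences was not tested beyond leaving cells out. Without the T cells whose UMIs were over 1% microglial and macrophage markers, no gene was called between the gates by edgeR. There were 21 such cells (up to 7.05%), of which 1 was a control cell that entered no fit. Chronic resident libraries a, b and c held 7, 9 and 1 of them, chronic infiltrating library b held 2 and peak resident library a held 1. None of the 12 T cells outside Cluster 5 was below that 1%.

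**Figure D5:**
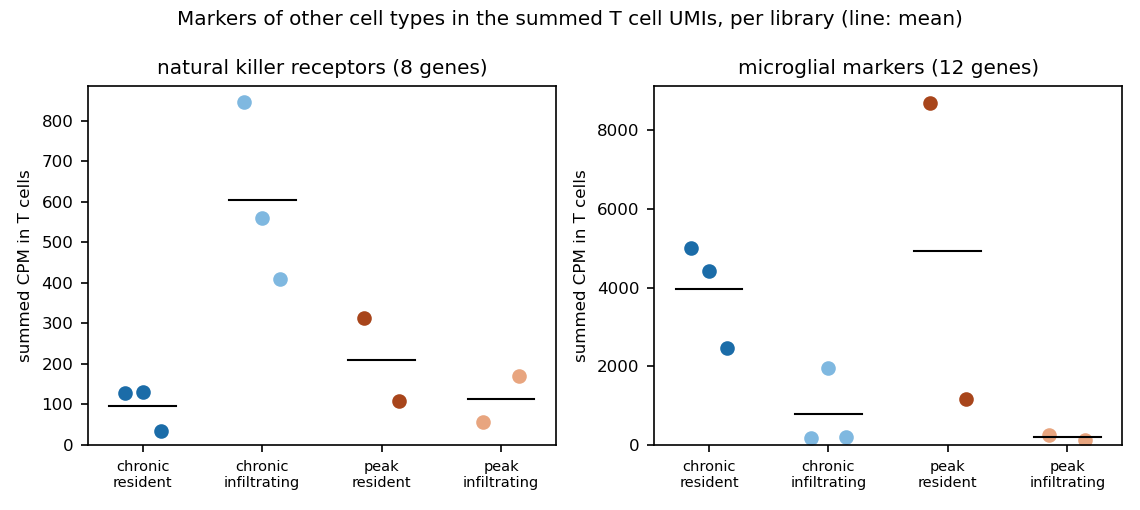
Summed CPM of natural killer markers (left) and of microglial markers (right) in the T cells of each EAE library (points; lines are group means), chronic left of peak and resident left of infiltrating. Microglial markers reach 8695 CPM in a peak resident library with 6 T cells, and natural killer markers are highest, at 409 to 845 CPM, in chronic infiltrating libraries.

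With the stage as a term, most cytotoxic genes had lower values in the resident gate. Of 15 tested genes, 14 had a negative log2 value and Gzma was called (median −0.458, against −0.027 over all genes). The unscaled sum of the 16 listed genes was lower in the resident gate in chronic EAE only, at 4324 to 12063 CPM against 18438 to 28945 CPM. At the peak it was higher in the resident gate, at 10291 to 11422 CPM against 8729 to 9057 CPM. All 16 interferon-response genes had a positive value, with a median of 0.388, and none was called. In chronic EAE alone, 1 of 4304 genes was called between the gates (0.0232%). That was Prf1, at 70.0, 18.7 and 20.9 CPM in resident and 300, 385 and 281 CPM in infiltrating libraries, which fell by 3.16 ± 0.42 (adjusted p = 0.00945 by edgeR). The median of the cytotoxic list there was −1.242, and that of the natural killer list −2.143. With Cd3-positive cells only, Prf1 had −0.59 (adjusted p = 1), within an adjusted p range of 1.51e-11 to 1 over its alternatives.

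The stage difference itself differed between the gates for 2 of 4304 genes (0.0465%), Klf2 and Prf1. Klf2 had 272, 245 and 48.8 CPM in chronic resident libraries, against 504 and 432 CPM in peak resident ones, the opposite order to the infiltrating gate. Prf1 had 70.0, 18.7 and 20.9 CPM in chronic resident libraries, against 101 and 111 CPM in peak resident ones. The interaction, resident minus infiltrating, was −5.01 ± 0.69 for Klf2 (adjusted p = 0.014) and −4.94 ± 0.79 for Prf1 (adjusted p = 0.0372, both by edgeR). It rests on 16 peak resident T cells, not all of which held these genes. In peak resident libraries a and b, Klf2 had 20 UMIs in 2 cells and 39 UMIs in 6 cells. Prf1 had 4 UMIs in 2 cells and 10 UMIs in 4 cells there, with 50% of them in 1 cell of each library. Leaving out any 1 of the 4 peak libraries, neither was called, and the same held with Cd3-positive cells only, where Klf2 had −4.68 (adjusted p = 0.0557) and Prf1 −2.06 (adjusted p = 1). Over the pooled cells of each class, Klf2 was at 1313 CPM in natural killer-like, 537 CPM in Cd8 and 46.9 CPM in Cd4 cells.

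Cell by cell, at equal depth, the share of T cells with an Ifng UMI was 3.85%, 13% and 2.86% in chronic resident and 4.17%, 9.38% and 13.5% in chronic infiltrating libraries, against 33.3% and 10.0% in peak resident and 24.8% and 23.4% in peak infiltrating libraries. The means were 7.79% ± 4.80 in chronic and 22.9% ± 9.65 in peak libraries (exact permutation p = 0.02, adjusted p = 0.3), and no microglial cell of 11409 had a thinned Ifng UMI. Csf2-positive cells were 0.864% ± 1.49 in chronic and 10.5% ± 15.5 in peak libraries (exact permutation p = 0.07, adjusted p = 0.35). Cells with a UMI of Pdcd1, the inhibitory receptor PD-1, were 9.33% ± 5.31 in chronic and 19.8% ± 6.89 in peak libraries (exact permutation p = 0.04, adjusted p = 0.3), against 4.52% of microglia. None of the 15 shares was called, and 0.01 is the smallest p these libraries allow for stage. Unthinned, 5 shares were called, with Ifng at 18.5% in chronic and 49.1% in peak libraries (exact permutation p = 0.01, adjusted p = 0.03). Foxp3-positive cells were 11.3% ± 10.6 in chronic and 0.709% ± 1.00 in peak libraries unthinned, which was not called (exact permutation p = 0.05, adjusted p = 0.0938). After thinning they were 2.65% ± 3.23 and 0.709% ± 1.00 (exact permutation p = 0.37, adjusted p = 0.641). Cxcr6 was found in 52.8% ± 10.3 of chronic and 49.5% ± 22.9 of peak T cells at equal depth, with a difference of 3.25 percentage points that was within the spread (exact permutation p = 0.89, adjusted p = 0.954).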

How the data were processed

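Single-cell RNA was read in 13 libraries of sorted spinal cord cells. The deposited matrix holds UMI counts per gene and cell, not normalized, made with Cell Ranger 3.1.0 and R 4.1.3 on GRCm38 (mm10), per the submitters' processing notes; which gene models were counted is not given there. The deposited cell table gives cell type, cluster, library group, the SLX code called pool here, a batch date, the log10 of each cell's total UMIs (within 5.33e-15 of the matrix) and the percent of mitochondrial UMIs, by the authors (medians of 1.37 to 3.03% in EAE T cells). A further deposited table was not used here.

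UMIs were summed over the annotated T cells of each EAE library with at least 5 of them (10 libraries). edgeR 4.0.16 (R 4.3.3) fitted them with quasi-likelihood after filterByExpr and TMM scaling (factors 0.916 to 1.131), with stage and gate as terms (7 residual degrees of freedom) or as 4 group means (6). The biological coefficient of variation was 27.8%. Genes were called at a Benjamini-Hochberg adjusted p under 0.05 over 4304 genes; log2 fold changes are given ± SE. At an unadjusted p under 0.05 were 813 genes for stage, 209 for gate, 472 for stage in the infiltrating gate, 129 for gate in chronic EAE and 171 for the interaction. CPM in the marker check are unscaled; elsewhere, except for class totals and marker sums, they are TMM-scaled. The Cd8 and Cd4 comparison was scaled on its own. Shares with a UMI were taken after thinning to 1000 UMIs and tested by two-sided exact permutation within gate (100 arrangements) or within stage (120, smallest p 0.0167). The shares are counted over cells, so their counting error is that of 6 to 141 cells.

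Genes were named by rule: among called genes without overlap and with an absolute log2 value of at least 1, up to 8 per direction with at least 2 times the CPM of other cells and up to 6 per direction of the rest, by p, without ribosomal protein and predicted genes; listed genes were named whether called or not. For Cd8 against Cd4 cells up to 10 per direction were named, without the overlap condition. Members and lists were chosen with earlier results of these data known. Of the list genes, 12 are not among the features, and 2 planned shares were not measured. The fits were checked on simulated counts. Alternatives were DESeq2 1.42.0, library-size scaling, no filter, other minimums of T cells, subsets of cells, the pool as a term and leaving out each library. Control T cells (2) were left out of all fits. Promoter windows were taken from the RefSeq table by symbol, and all 3 matched. The labels call the libraries biological replicates; whether animals were pooled is not given there.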

Additional observations from a re-analysis of the deposited data

Results flagged for a closer look

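2 results were set apart because the stage difference itself differed between the gates in a tested interaction (edgeR, adjusted p under 0.05). For Klf2 the chronic minus peak log2 difference was lower in the resident than in the infiltrating gate by −5.01 ± 0.69, and for Prf1 by −4.94 ± 0.79. Klf2 lost the call in 7 of 18 alternatives (log2 values −5.32 to −1.25) and Prf1 in 11 of 17 (−5.82 to −2.06). Natural killer markers moved with both genes, at 33.9 to 130 CPM in T cells of chronic resident libraries, against 409 to 845 CPM in chronic infiltrating ones, and at 108 to 314 CPM in peak resident libraries, against 56.7 to 169 CPM in peak infiltrating ones; their part in these results was tested only by leaving out cells without a Cd3 UMI. With cells holding a Cd3 UMI only, neither interaction was called, with an adjusted p of 0.0557 for Klf2 and 1 for Prf1.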

How the results depend on the processing

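No paired analysis was possible because the cell table gives a library's group without the number that its label carries. For chronic against peak, 93 genes were called in the main fit; 181 were called by DESeq2 (83 shared), 266 without the low-count filter (85 shared), 13 with at least 20 T cells per library (7 shared) and 7 with Cd4 cells only (5 shared). Leaving out 1 library gave 4 genes (without peak infiltrating b, 2 shared) to 240 (without peak infiltrating a, 86 shared); between these, 18 were called without peak resident b, 21, 47 and 152 without chronic resident b, a and c, and 24, 51 and 163 without chronic infiltrating b, a and c. Library-size scaling gave 51 higher and 50 lower. Between gates, 6 genes were called; 0 with library-size scaling, with at least 10 T cells, with Cluster 5 only, without cells over 1% myeloid marker UMIs and with Cd4 cells only, 1 with at least 20 T cells, 3 with the pool as a term, 13 by DESeq2, 93 without the filter, and 0 to 18 on leaving out a library (18 without chronic infiltrating b, 3 without peak infiltrating b, 0 without chronic resident b, chronic infiltrating a or c, peak resident a or peak infiltrating a). For stage in the infiltrating gate, 12 genes were called; 31 by DESeq2, 133 without the filter, 1 with Cd3-positive cells only, 0 with Cd4 cells only, and 3 to 17 on leaving out a library (3 without chronic resident b, chronic infiltrating a or b or peak infiltrating b, 6 without peak infiltrating a). For gate in chronic EAE, 1 gene was called; 5 by DESeq2, 61 without the filter, 5 with the pool as a term, 0 with Cd3-positive or Cd4 cells only, and 0 to 14 on leaving out a library (14 without chronic infiltrating b, 0 without chronic resident b). For the interaction, 2 genes were called; 24 without the filter, 0 with at least 10 T cells, with Cd3-positive cells only and with Cd4 cells only, and 0 to 3 on leaving out a library (0 without each peak library, 1 without each chronic library except resident a); with at least 20 T cells it could not be fitted, since no peak resident library remains. The 40 genes between Cd8 and Cd4 cells became 23 (without peak infiltrating a) to 57 on leaving out a library, and 25 without chronic resident a; library-size scaling gave 13 higher and 41 lower there, against 15 and 25. Of 15 stage shares 0 were called, and 5 without thinning. On leaving out any library 0 were called, for stage or gate. With so few arrangements, a call needs many of the 15 shares near the smallest p at once, so these 0 do not show stability. The Cd4 gene had a log2 value of 0.13 for stage in Cd4 cells only, which were chosen by it, and −1.49 in all T cells. Of the values of named genes that were called, 695 stayed called under an alternative, 253 lost the call and 1 reversed; of those not called, 79 gained a call. Except where a count follows from fewer samples, cells or genes tested, the cause was not tested. Depth limits the peak resident group most, with 6 and 10 T cells.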
